A study of Mus musculus with 24 samples.

Results

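The cyclin-dependent kinase (CDK) inhibitors are the 7 mouse genes Cdkn1a, Cdkn1b, Cdkn1c, Cdkn2a, Cdkn2b, Cdkn2c and Cdkn2d, read here in every cell line of the series. Their members were chosen by gene symbol: every probe whose RefSeq transcript maps to one of these symbols was taken, which gave 10 probes among the 56488 probes kept, and 7 genes among 45547 names. Cdkn1a, Cdkn2a and Cdkn2b had 2 probes each, and the brighter one on average stood for the gene.

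Total RNA of 7 mouse cell lines was hybridised to 24 single-colour Agilent arrays, 1 sample per array. The 5 melanoma lines were B16F1-GFP-M, the parental line (M, 3 arrays), B16F1-GFP-D, recovered from vaccinated syngeneic mice after long dormancy (D, 4 arrays), and B16F1-GFP-DB#1 (4 arrays), B16F1-GFP-DB#2 (3) and B16F1-GFP-DB#3 (3), a second dormant generation taken from a brain site. All melanoma lines derive from B16-F1, a pigmented mouse melanoma, carry green fluorescent protein and were grown in DMEM with serum, and all dormant cells were amplified in vitro before analysis, so the arrays describe cultured cells and not cells in the dormant site. Of the myeloid lines, M0 (4 arrays) and J365 (3 arrays), the labels say that the cells are myeloid and add p20 to both names, with no word on what either adds, and 1 array of each carries no replicate number and is called replicate 4 here. The comparisons ask what differs between the dormant melanoma lines and M, between the second generation and D, and between J365 and M0. Nothing in the labels says that arrays of a line came from separate cultures, so the spread between arrays may be technical.

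CDK inhibitors are small proteins that hold back the cell cycle by binding CDKs, the kinases that drive cells from G1 into S phase. The Cip/Kip members p21 (Cdkn1a), p27 (Cdkn1b) and p57 (Cdkn1c) bind cyclin-CDK complexes broadly, whereas the INK4 members p16 (Cdkn2a), p15 (Cdkn2b), p18 (Cdkn2c) and p19 (Cdkn2d) bind CDK4 and CDK6 and keep the retinoblastoma protein in its growth-restraining form. Cdkn2a also encodes p19Arf, which stabilises p53 by blocking Mdm2, and the INK4 genes of this locus are well-known tumour suppressors in melanoma.

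Each value below is a normalized log2 signal, the log2 of a probe's background-corrected intensity minus the 75th percentile of its array, so that 0 is the level of that percentile. Signals of different probes were not compared with each other. A probe was read where Agilent's software marked it well above background. The share of such probes was 43.6% to 53.8% on 23 arrays and 89.9% on D replicate 3, whose 75th percentile of intensity was also the highest (574, others 271 to 484). The mean signal of 14 melanin synthesis genes was 5.63 to 6.39 on the other 16 melanoma arrays and 5.19 on D replicate 3, whereas the 7 myeloid arrays gave -4.37 to -3.49. The mean of 12 blood cell genes was 2.17 to 3.01 on the myeloid arrays, with all 12 read on each, and -4.60 to -3.83 on the other melanoma arrays, with 3 to 7 read. On D replicate 3 it was -2.63, with 10 of 12 read, beside 89.9% of all probes read there. The members' differences from D are therefore given with and without this array.

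**Figure D1:**
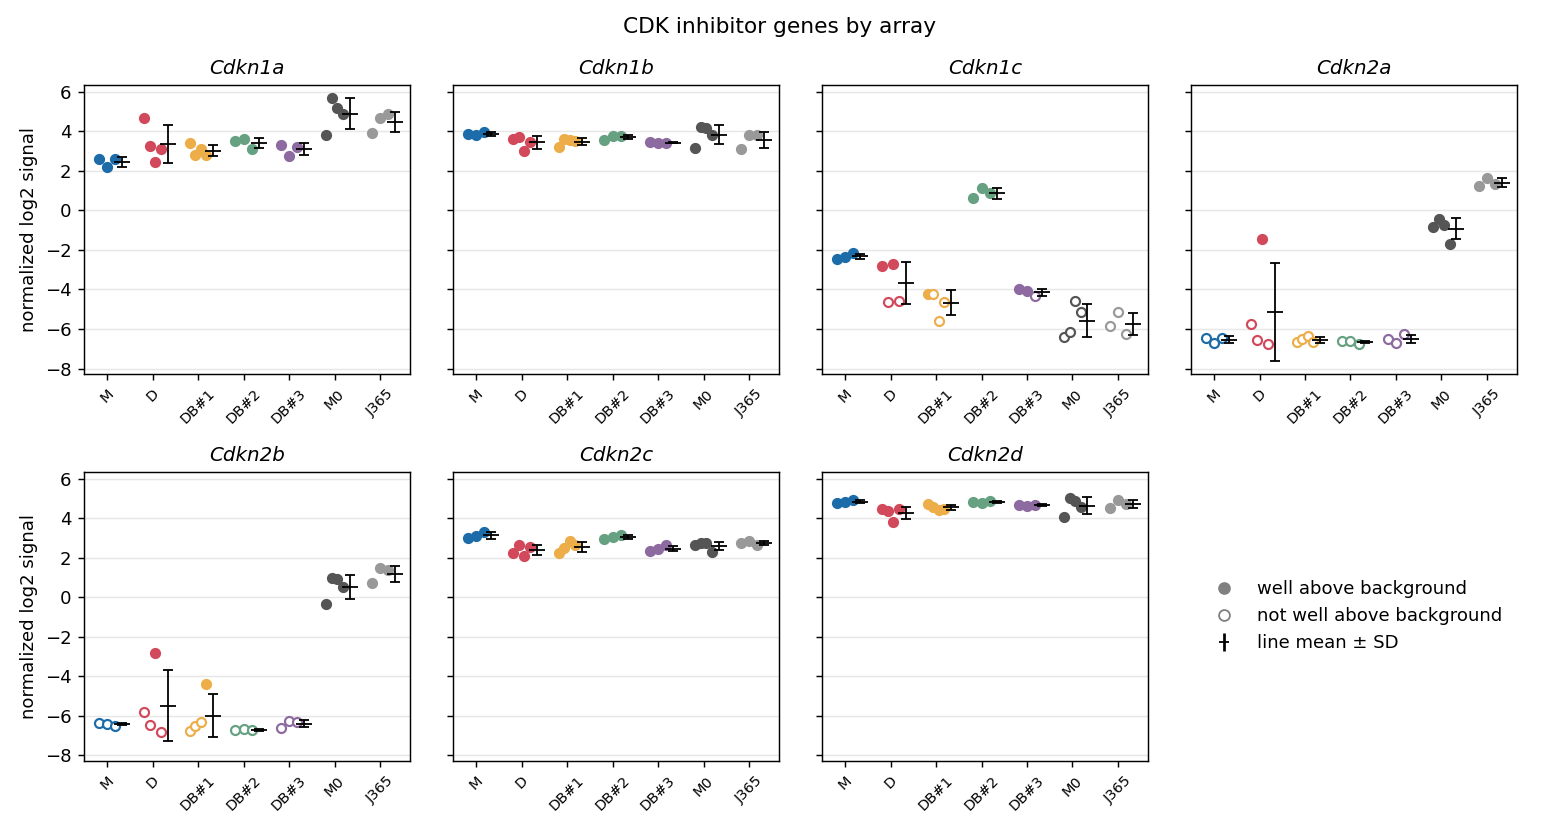
Normalized log2 signal (vertical axis) of the 7 CDK inhibitor genes on each array, by cell line (horizontal axis), with filled points well above background, open points not, and black bars for the line mean and its SD. Cdkn2a and Cdkn2b stood high only on the M0 and J365 arrays apart from D replicate 3 and, for Cdkn2b, DB#1 replicate 4, and Cdkn1c stood highest in DB#2.

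Cdkn1a, Cdkn1b, Cdkn2c and Cdkn2d were read on all 17 melanoma and all 7 myeloid arrays, while the other 3 genes divided the lines. Cdkn2a was read on 1 of 17 melanoma arrays and Cdkn2b on 2, but both on 7 of 7 myeloid arrays. Cdkn1c was read on 11 of 17 melanoma arrays and on 0 of 7 myeloid arrays. In a line-average measurement, fewer cells with a transcript and less RNA per cell cannot be told apart.

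Cdkn1a encodes p21, the CDK inhibitor best known as a transcriptional target of p53. Its brighter probe gave 2.60, 2.18 and 2.62 on the M arrays and 4.67, 3.27, 2.43 and 3.09 on the D arrays. D replicate 1 was the highest melanoma array and D replicate 3 lay within the range of M, so the lines overlapped. Values were 3.41, 2.81, 3.09 and 2.78 in DB#1, 3.53, 3.59 and 3.1 in DB#2, and 3.31, 2.74 and 3.22 in DB#3, all above the highest M array. In M0 the probe gave 5.68, 5.18, 4.89 and, on the array without a number, 3.83. In J365 it gave 4.65, 4.85 and, on the array without a number, 3.93, so that the unnumbered array was the lowest of its line in both.

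The line means ran from M0 (4.90 ± 0.78, SD, n = 4) and J365 (4.48 ± 0.49, n = 3) down to DB#2 (3.41 ± 0.27, n = 3), D (3.37 ± 0.94, n = 4), DB#3 (3.09 ± 0.31, n = 3), DB#1 (3.02 ± 0.29, n = 4) and M (2.47 ± 0.25, n = 3). Between neighbours in this order, 1 step passed limma's test, J365 over DB#2 by 1.07 (adjusted p = 0.0496). The mean of D was 3.68 without D replicate 3, above DB#2. On this brighter probe all 10 pairs of a melanoma and a myeloid line were called higher in the myeloid line. Of 10 pairs of melanoma lines, 0 were called. Without D replicate 3, J365 was 0.80 above D and no longer called (adjusted p = 0.105), while M0 stayed called over D (1.22, adjusted p = 0.00963). Most genes were called in the mixed pairs: 58.5%, 61.3%, 61.9%, 61.1% and 60.2% of those tested in M0 against M, D, DB#1, DB#2 and DB#3, and 54.4%, 54.8%, 56.4%, 56% and 54.7% in J365 against the same lines. Cdkn1a was higher than in M by 0.90 in D (SE 0.42, adjusted p = 0.398), 0.55 in DB#1 (adjusted p = 0.725), 0.94 in DB#2 (adjusted p = 0.411) and 0.62 in DB#3 (adjusted p = 0.834), none of which passed in limma.

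The dimmer Cdkn1a probe, designed on another transcript of the gene, gave a larger difference in D. Its values were -2.52, -3.10 and -3.36 in M and 0.19, -1.0, -0.45 and -1.76 in D, and the lines did not overlap. The difference was 2.24 (SE 0.44), which passed when limma was run over single probes (adjusted p = 0.00489), and the second probe's DB#2 level lay 1.63 below D (adjusted p = 0.0298), where the brighter probe differed by 0.04. Without D replicate 3 the dimmer probe's difference from M was 2.14 and stayed called (adjusted p = 0.0163), and its difference between DB#2 and D was -1.53 and was not (adjusted p = 0.0646). With the mean of both probes in place of the brighter one, Cdkn1a passed in D against M (1.57, adjusted p = 0.0369). Without D replicate 3 the brighter probe's difference was 1.21 (adjusted p = 0.139). The 2 probes therefore had the same direction in D against M but a different size, and the gene's call depended on the probe. On the dimmer probe the D mean (-0.75 ± 0.83, SD, n = 4) was level with J365 (-0.73 ± 0.59, n = 3). M0 was at -0.02 ± 0.98 (n = 4), and the other melanoma lines ran from -1.80 in DB#1 to -2.99 in M. The gap between myeloid lines and D on the brighter probe was thus not shared by the dimmer one for J365.

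**Figure D2:**
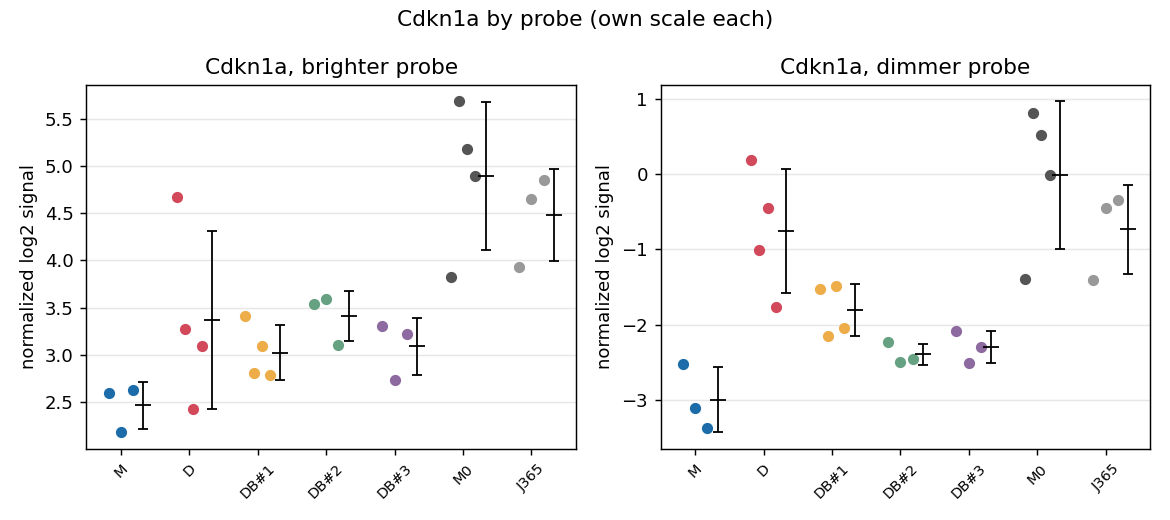
Normalized log2 signal (vertical axes, a separate scale for each panel) of the 2 Cdkn1a probes on each array by line, with black bars for the line mean and its SD. On the dimmer probe every D array lay above every M array, while on the brighter probe D replicate 3 (2.43) lay within the M range of 2.18 to 2.62.

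The 250 bases before both RefSeq starts of Cdkn1a (GRCm38.p6, plus strand) are shown because p53 is the gene's known regulator. Capitals mark matches to the motifs searched on both strands: the p53 element core (CATG, any 6 bases, CATG), the GC box GGGCGG, the TATA box TATAAA, the E-box CACGTG and the E2F sites TTTCCCGC and TTTGGCGC. The p53 core began 48 bases before the upstream start and was found in 0.49% of 32841 such windows of all genes, and GC boxes, found in 32.7% of windows, began 104 and 46 bases before the downstream start. These are matches of letters, not measured sites.
Cdkn1a, chr17:29090729-29090978: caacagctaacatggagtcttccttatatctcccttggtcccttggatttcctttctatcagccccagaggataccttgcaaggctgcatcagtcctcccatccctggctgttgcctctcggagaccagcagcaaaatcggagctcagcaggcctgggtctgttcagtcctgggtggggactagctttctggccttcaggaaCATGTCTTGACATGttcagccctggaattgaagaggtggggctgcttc
Cdkn1a, chr17:29093519-29093768: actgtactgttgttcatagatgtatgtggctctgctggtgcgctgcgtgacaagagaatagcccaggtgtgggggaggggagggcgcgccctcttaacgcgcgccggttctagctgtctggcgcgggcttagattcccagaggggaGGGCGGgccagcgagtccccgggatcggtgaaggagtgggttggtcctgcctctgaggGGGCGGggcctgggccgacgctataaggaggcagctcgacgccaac

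Cdkn1b encodes p27, whose protein is removed by the SCF-Skp2 ubiquitin ligase as cells enter S phase. Its signal was nearly flat, with line means from 3.88 ± 0.10 in M to 3.42 ± 0.03 in DB#3 (SD, n = 3 each), and D (3.45 ± 0.32, n = 4) and M0 (3.84 ± 0.50, n = 4) between them. None of the 21 pairs of lines was called by limma (0 of 21). The 3 M arrays lay between 3.81 and 3.99, above every array of the other melanoma lines. These ranged from 2.99 to 3.74 in D, 3.21 to 3.62 in DB#1, 3.58 to 3.77 in DB#2 and 3.39 to 3.46 in DB#3. The differences from M did not pass: -0.43 in D (adjusted p = 0.499), -0.41 in DB#1 (0.520), -0.17 in DB#2 (0.953) and -0.46 in DB#3 (0.598). In D it was -0.28 without D replicate 3 (adjusted p = 0.602).

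Cdkn1c encodes p57, an imprinted gene expressed mainly from the maternal copy. It was the member that set DB#2 apart from every other line. Its probe gave 0.60, 1.15 and 0.87 in DB#2, against -2.45, -2.33 and -2.17 in M, with all 6 arrays read. Every DB#2 array lay above every array of the other 6 lines.

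In D the probe gave -2.83 and -2.69 on replicates 1 and 3, where it was read, and -4.62 and -4.58 on replicates 2 and 4, where it was not. In DB#1 it gave -4.23 (read), -4.23, -5.57 and -4.64, and in DB#3 it gave -3.99 and -4.10 (read) and -4.33. All D, DB#1 and DB#3 arrays lay below all M arrays. In M0 (-6.38 to -4.61) and J365 (-6.27 to -5.16) it was not well above background on any array, so those values give only an upper limit.

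Against M, Cdkn1c rose 9.16-fold in DB#2 (log2 3.19, SE 0.51, limma's adjusted p = 0.000419) and fell by 2.35 on the log2 scale in DB#1 (SE 0.48, adjusted p = 0.00464), where 3 of 4 arrays had no reading above background. With such arrays set to the lowest signal read on them where that was higher, the fall in DB#1 was at least 3.85-fold. In D, DB#1 and DB#3 against M, the gene entered the test only through M. The probe was lower by 1.36 in D (adjusted p = 0.175) and by 1.82 in DB#3 (adjusted p = 0.0659), which did not pass. The D difference passed with quantile normalization (-2.0, adjusted p = 0.0457) and with normexp (-0.61, adjusted p = 0.0353), and was -1.69 without D replicate 3 (adjusted p = 0.0632). The DB#3 difference passed in 3 of 17 alternative settings. Within the 3 slides, on which the arrays were processed in sets of 8, the DB#2 difference was 3.33, 2.94 and 3.32. The call in DB#2 against M was kept in 17 of 17 alternative settings, with differences of 2.41 to 3.43. The DB#1 difference was -3.40, -1.90 and -1.99 within slides, and its call was kept in 18 of 18 settings, with differences of -2.50 to -0.85, the smallest with normexp.

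DB#2 also exceeded the other dormant lines, in which the probe was read on 2 of 4 D, 1 of 4 DB#1 and 2 of 3 DB#3 arrays, so that the size has only a bound. It was at least 22.0-fold above D (limma's adjusted p = 1.82e-06), 35.2-fold above DB#1 (adjusted p = 1.37e-07) and 30.7-fold above DB#3 (adjusted p = 1.3e-06). The gene entered these tests only because every DB#2 array was read, so the filter itself favoured this direction. The fitted log2 difference from D was 4.56 and ran from 3.02 with normexp to 5.17 with quantile normalization, called in 18 of 18 settings. Of all genes tested, 5.47% were called between DB#2 and DB#1, 4.44% between DB#3 and DB#2 and 0.229% between DB#3 and DB#1. DB#2 was at least 27.1-fold above D without D replicate 3 (adjusted p = 1.05e-06). DB#2 was at least 31.3-fold above M0 and at least 34.5-fold above J365, and M at least 3.42-fold and 3.76-fold, each bound taking for a myeloid array the higher of the probe's signal and the lowest signal read there. Comparisons with M share the M arrays, and those with D the D arrays.

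The genes beside Cdkn1c in the imprinted cluster were tested in the same fit. Of 12 listed neighbours, 8 were tested in DB#2 against M, and 1 rose, Cd81 (log2 0.83, SE 0.18, adjusted p = 0.00671), which encodes a tetraspanin of the cell surface, beside 3.44% of all genes called. The median of the 8 was -0.01, beside 0.02 over all genes tested. Slc22a18, a transporter gene of the same cluster, was 3.50 ± 0.28 in DB#2 and 3.1 ± 0.12 in M (SD, n = 3 each, difference 0.39, adjusted p = 0.892), and 2.13 ± 1.14 in D (n = 4), 2.19 ± 0.42 in DB#1 (n = 4) and 2.61 ± 0.15 in DB#3 (n = 3). Against D, 3 of 8 neighbours were called higher in DB#2 (6.34% of all genes were called), Slc22a18 by 1.37 (adjusted p = 0.0381), Phlda2 by 0.79 (adjusted p = 0.00785) and Cd81 by 0.68 (adjusted p = 0.0131), although D replicate 1 (3.83) lay above all DB#2 arrays for Slc22a18. Against DB#1 and DB#3, 0 of 8 were called in DB#2, beside 5.47% and 4.44% of all genes. An unadjusted p under 0.05 was reached by 3 and 1 of them, and the share of all genes at that level was not taken for these pairs. Nap1l4, Tssc4, Tnfrsf23 and Osbpl5, the other tested neighbours, differed from M in DB#2 by 0.22, 0.04, -0.64 and -0.06 (adjusted p from 0.525 to 0.999). Kcnq1ot1, the long noncoding RNA that silences the paternal copies of this cluster, was 1.68 ± 0.92 in DB#2 and 1.97 ± 0.89 in M (adjusted p = 0.990). Phlda2, an imprinted growth regulator of placenta, fell by 1.01 in D (adjusted p = 0.00146) and by 0.71 in DB#1 (adjusted p = 0.024, lost without M replicate 1 or DB#1 replicate 2, 3 or 4), and was not called in DB#2 (-0.22, adjusted p = 0.816).

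**Figure D3:**
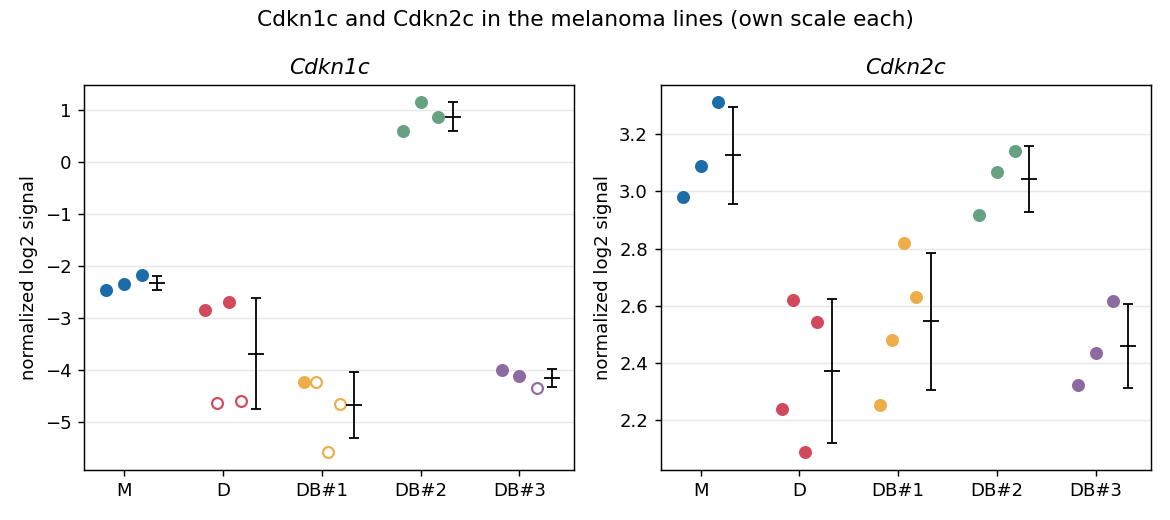
Normalized log2 signal (vertical axes, a separate scale for each panel) of Cdkn1c and Cdkn2c on each melanoma array by line, with filled points well above background, open points not, and black bars for the line mean and its SD. The 3 DB#2 arrays lay between 0.60 and 1.15 for Cdkn1c and within 2.92 to 3.14 for Cdkn2c, where M lay between 2.98 and 3.31.

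Cdkn2a and Cdkn2b lie side by side and were read in the myeloid lines and hardly at all in melanoma. The brighter Cdkn2a probe gave -0.45, -0.73, -1.69 and, without a number, -0.86 in M0. It gave 1.65, 1.34 and, without a number, 1.23 in J365. On the 17 melanoma arrays it lay between -6.77 and -5.73 with no reading above background, except -1.46 on D replicate 3.

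The brighter Cdkn2b probe gave 0.98, 0.92, 0.50 and -0.35 in M0, and 1.47, 1.35 and 0.72 in J365, where in both the last value is the array without a number. On the melanoma arrays it lay between -6.83 and -5.81, except -2.84 on D replicate 3 and -4.38 on DB#1 replicate 4, the arrays on which it was read. Its second probe was read on D replicate 3 (-2.18) and not on DB#1 replicate 4 (-5.59). D replicate 3 is the array with 89.9% of all probes read. Its mean of the blood cell genes (-2.63, 10 of 12 read) was the highest of the melanoma arrays, and its mean of the melanin genes (5.19) the lowest. The part of the wide detection, or of what moved these marker means, in its Cdkn2a and Cdkn2b values was not tested. On D replicate 3 the second Cdkn2a probe was not read (-6.95).

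Against M, Cdkn2a was at least 10.3-fold higher in M0 and at least 51.9-fold in J365 (limma's adjusted p = 2.6e-06 and 5.37e-08), and Cdkn2b at least 27.9-fold and 44.4-fold (adjusted p = 1.73e-08 and 1.31e-08). Both genes were called higher in the myeloid line in 10 of 10 pairs of a melanoma and a myeloid line, against the same background of 54.4% to 61.9%. In these pairs both passed the filter only through the myeloid line, in which they were high. The direction of the calls was thus largely set by the filter, and they add little to the counts of arrays read. Neither was tested between melanoma lines, since in no melanoma line was it read on every array. Against D, where 1 of 4 arrays was read, Cdkn2a was at least 5.70-fold higher in M0 and 28.9-fold in J365, and without D replicate 3 at least 9.02-fold and 45.7-fold (adjusted p = 1.65e-13 and 1.66e-15). Cdkn2b was at least 19.7-fold and 31.4-fold above D, and without that array 24.5-fold and 39.1-fold (adjusted p = 2.52e-11 and 1.84e-11).

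Between the myeloid lines Cdkn2a was higher in J365 on both probes. The lowest J365 array (1.23) lay above the highest M0 array (-0.45) on the brighter probe, and the difference was 2.34 (SE 0.77, adjusted p = 0.209), 5.06-fold. It was 1.79, 2.50 and 2.38 within the 3 slides. The fit takes the spread from all 24 arrays, D replicate 3 among them. With that array left out of the spread, a setting chosen after seeing the data, the same difference had an SE of 0.25 and an adjusted p of 3.07e-06. In a fit of only M0 and J365 the adjusted p was 0.00534. The difference was called in 5 of 18 alternative settings, and with any 1 array of the 2 lines left out limma's adjusted p was 0.211 to 0.545.

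The dimmer Cdkn2a probe was read on 3 of 3 J365 arrays (-3.19, -2.45 and -3.25) and on 0 of 4 M0 arrays. It was at least 2.19-fold higher in J365 (limma over single probes, adjusted p = 2.85e-06). Both probes name the same transcript, so transcripts for p16 and for p19Arf could not be told apart. Cdkn2b differed between J365 and M0 by 0.67 (SE 0.67, adjusted p = 0.967), and the lines overlapped.

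The windows before both Cdkn2a starts and the Cdkn2b start (250 bases, GRCm38.p6, minus strand) are shown because the 2 genes were read in the same lines. Capitals and motifs are those given for Cdkn1a. The upstream Cdkn2a window held GC boxes beginning 48 and 14 bases and an E2F site (TTTCCCGC, found in 0.895% of all windows) beginning 99 bases before the start, and 40 CpG dinucleotides, beside a median of 6 over all windows. The downstream Cdkn2a window held 7 and the Cdkn2b window 12, with no motif match in these letters. The 6 matched genes gave 9 windows, and GC boxes were found in 5 of them.
Cdkn2a, chr4:89294620-89294869: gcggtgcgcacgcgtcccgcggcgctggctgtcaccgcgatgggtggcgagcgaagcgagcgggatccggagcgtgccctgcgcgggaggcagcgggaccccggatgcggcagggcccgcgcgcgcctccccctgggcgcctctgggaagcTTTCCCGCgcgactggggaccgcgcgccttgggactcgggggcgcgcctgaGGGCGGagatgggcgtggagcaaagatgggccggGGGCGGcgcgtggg
Cdkn2a, chr4:89282193-89282442: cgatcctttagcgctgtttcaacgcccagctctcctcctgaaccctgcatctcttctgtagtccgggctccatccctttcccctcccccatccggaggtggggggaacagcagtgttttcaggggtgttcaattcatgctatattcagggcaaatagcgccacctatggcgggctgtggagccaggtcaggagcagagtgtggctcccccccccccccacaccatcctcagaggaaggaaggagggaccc
Cdkn2b, chr4:89311033-89311282: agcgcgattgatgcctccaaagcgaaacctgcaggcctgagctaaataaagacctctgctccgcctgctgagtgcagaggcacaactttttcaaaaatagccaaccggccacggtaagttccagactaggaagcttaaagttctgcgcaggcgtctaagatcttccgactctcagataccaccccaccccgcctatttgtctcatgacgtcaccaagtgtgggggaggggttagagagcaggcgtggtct

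The genes on either side were not read in the same pattern. Mtap, next to Cdkn2a and coding for an enzyme of methionine salvage, was read on every array, with line means of 4.97 to 5.37 in melanoma, 4.44 ± 0.16 in M0 (SD, n = 4) and 5.23 ± 0.24 in J365 (n = 3). It was higher in J365 than in M0 by 0.79 (SE 0.15, adjusted p = 0.00641), with no overlap between the lines, and the call was lost without the J365 array that has no number (adjusted p = 0.0744). Dmrta1, the gene beyond Cdkn2b, was read on 1 of the 24 arrays, D replicate 3. Focad, another listed neighbour, had the opposite pattern: its line means were 1.00 to 1.28 in melanoma and it was not read on any myeloid array. It was at least 34.0-fold lower in M0 and 37.4-fold in J365 than in M. Hacd4, which codes for an enzyme of very long chain fatty acid synthesis, fell by 1.53 in D (adjusted p = 0.00223) and by 1.27 in DB#1 (adjusted p = 0.00887) against M, the second lost without M replicate 3 (adjusted p = 0.0732). Klhl9, an adaptor of a ubiquitin ligase, was read on every array, with line means of 3.61 to 4.16.

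**Figure D4:**
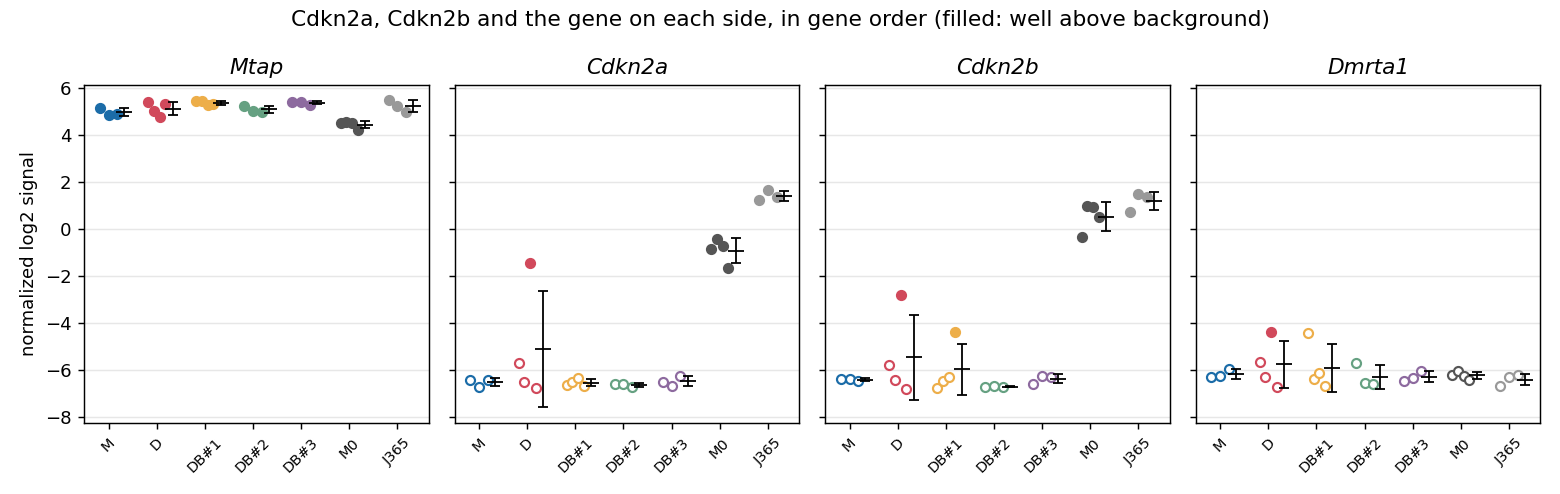
Normalized log2 signal (vertical axis) of Mtap, Cdkn2a, Cdkn2b and Dmrta1, which lie in this order, on each array by line (horizontal axis), with filled points well above background and black bars for the line mean and its SD. Mtap was read in all lines, Cdkn2a and Cdkn2b on the 7 myeloid arrays and on 1 and 2 melanoma arrays, and Dmrta1 on D replicate 3 alone.

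Cdkn2c encodes p18. It gave 2.98, 3.09 and 3.31 in M, and 2.24, 2.62, 2.09 and 2.54 in D, which did not overlap with M. DB#1 (2.25, 2.48, 2.82 and 2.63) and DB#3 (2.32, 2.43 and 2.62) also lay wholly below M. DB#2 (2.92, 3.07 and 3.14) overlapped with M and lay above every D array. M0 ranged from 2.30 to 2.74 and J365 from 2.66 to 2.85.

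Against M, Cdkn2c fell by 0.76 on the log2 scale in D (SE 0.16, limma's adjusted p = 0.00842), 0.58 in DB#1 (SE 0.16, adjusted p = 0.0457) and 0.67 in DB#3 (SE 0.17, adjusted p = 0.0349), and in DB#2 the difference was -0.08 (adjusted p = 0.990). DB#2 was higher than D by 0.67 (SE 0.16, adjusted p = 0.0123), a call kept without D replicate 3 (0.58, adjusted p = 0.0321) and lost without DB#2 replicate 2 or 3 (adjusted p = 0.0571 and 0.0745). In D the difference was -0.88, -1.0 and -0.44 within slides and -0.66 without D replicate 3 (adjusted p = 0.0241). The call in D was kept in 15 of 18 alternative settings, and was lost without M replicate 3 (adjusted p = 0.0824), without scaling (0.0714) and with only the D and M arrays (0.282).

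The DB#1 and DB#3 calls lay close to the threshold: they were kept in 7 of 18 and 7 of 17 settings, and leaving out any 1 array of M or DB#3 ended the DB#3 call (adjusted p from 0.0516 to 0.214). In DB#1 the same held for any of the 3 M arrays and for 3 of 4 DB#1 arrays. Within slides the difference was -0.49, -0.84 and -0.43 in DB#1 and -0.69, -0.66 and -0.66 in DB#3. With the replicate number as a block, which treats arrays of the same number as belonging together, Cdkn2c in DB#1 had an adjusted p of 0.0721.

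Cdkn2d encodes the INK4 protein p19, which is not the Arf protein of Cdkn2a. Its line means ran from 4.83 ± 0.06 in M (SD, n = 3) to 4.27 ± 0.31 in D (n = 4), and no neighbours in the order differed beyond their spread in limma. The M arrays (4.77 to 4.90) lay above all 4 D arrays (4.44, 4.33, 3.82 and 4.48), but the difference of -0.56 did not pass (SE 0.19, adjusted p = 0.137). Without D replicate 3, the lowest array, it was -0.41 (adjusted p = 0.266). It passed in 3 of 18 alternative settings: with the percentile over detected probes (adjusted p = 0.0402), with quantile normalization (0.0282) and with slide as a block (0.0451). Of 21 pairs of lines, 1 was called, J365 above D by 0.47 (adjusted p = 0.0406), and without D replicate 3 it was 0.32 and not called (adjusted p = 0.132).

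In D against M, 5 of the 7 genes were tested and 1 was called, Cdkn2c, beside 2.97% of all 20145 genes tested. The median difference of the 5 was -0.56, beside -0.01 over all genes. Against M, 2 of 5 were called in DB#1 (3.69% of all genes), 1 of 5 in DB#2 (3.44%) and 1 of 5 in DB#3 (2.76%). Cdkn2c was called lower in D, DB#1 and DB#3, and Cdkn1c was called lower in DB#1 and higher in DB#2. With counts of 1 or 2 genes, the share of members called is a description of these genes only.

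Against D, 2 of 5 tested genes were called in DB#2 (6.34% of all genes), both higher, Cdkn2c and, tested only through DB#2, Cdkn1c. None was called in DB#1 (0 of 4, 0.475% of all genes) or DB#3 (0 of 4, 0.369%) by limma, and none had an unadjusted p under 0.05 there, beside 4.2% and 4.96% of all genes. Both counts stayed at 0 without D replicate 3. In J365 against M0, 0 of 6 were called (1.47% of all genes), and 1, Cdkn2a, had an unadjusted p under 0.05.

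The difference D minus M was set against the difference J365 minus M0 by limma in 1 model. Of 7 genes tested 1 was called (2.08% of all genes), Cdkn2c, by -0.90 (SE 0.23, adjusted p = 0.0414): it was 0.76 lower in D than in M and 0.15 higher in J365 than in M0. The call was kept in 9 of 25 alternative settings, and leaving out any 1 of 11 arrays, all but D replicates 2 and 4 and M0 replicate 1, ended it, with values of -0.98 to -0.80 over all 14 arrays left out in turn. For Cdkn2a the same contrast was -0.93 (adjusted p = 0.995) and -2.15 without D replicate 3 (adjusted p = 0.00121), a contrast in which neither melanoma line had a reading on all its arrays.

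**Figure D5:**
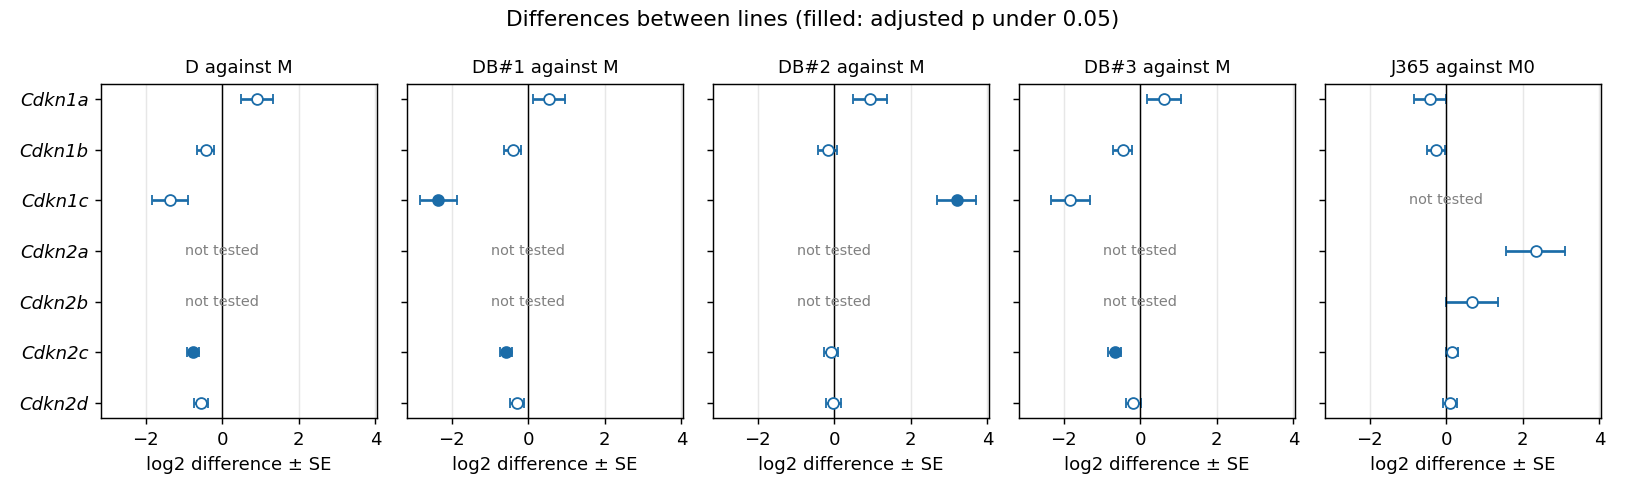
Log2 difference between lines with its standard error (horizontal axes) for each CDK inhibitor gene (rows) in 5 comparisons, with filled points called at an adjusted p under 0.05 by limma. Cdkn1c lay at 3.19 in DB#2 and -2.35 in DB#1 against M, Cdkn2c at -0.76, -0.58 and -0.67 in D, DB#1 and DB#3, and Cdkn2a and Cdkn2b were not tested between melanoma lines.

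Partners of the inhibitors in the cell cycle were counted between lines of one kind. Of all genes tested, 2.97%, 3.69%, 3.44%, 2.76% and 1.47% were called in D, DB#1, DB#2 and DB#3 against M and in J365 against M0. At such shares a short list would hold few or no calls. Beside the unadjusted counts given here and for the lists that follow, 11.7%, 12.7%, 12%, 9.9% and 8.68% of all genes tested had an unadjusted p under 0.05 in D, DB#1, DB#2 and DB#3 against M and in J365 against M0. Of the 5 kinases Cdk1, Cdk2, Cdk4, Cdk6 and Cdk7, 0 were called by limma in D, DB#1, DB#2 or DB#3 against M or in J365 against M0, with 2, 1, 0, 1 and 0 at an unadjusted p under 0.05. Cdk2, the partner of cyclins E and A, differed from M by -0.64 in D (adjusted p = 0.0969), -0.60 in DB#1 (0.113) and -0.68 in DB#3 (0.111), and Ccnd1, which encodes cyclin D1, by 0.72 in D (adjusted p = 0.540); both were named after their values were seen. Of 9 cyclins, 8 or 9 were tested against M and 6 between the myeloid lines, and 0 were called in any of the 5 comparisons (1, 1, 0, 0 and 0 unadjusted). The 3 retinoblastoma family genes gave 0 calls (1, 0, 0, 0 and 0 unadjusted), with a median of -0.41 in D. Of 20 proliferation genes 0 were called (0, 2, 0, 2 and 2 unadjusted), with medians from 0.06 to 0.22. Of 10 E2F genes 1 was called in DB#2 against M, Tfdp2, a dimerisation partner of E2F, which fell by 0.96 (SE 0.22, adjusted p = 0.015), and 0 in the other 4 comparisons (2, 4, 2, 0 and 1 unadjusted in all 5). The Tfdp2 call was lost without M replicate 3 (adjusted p = 0.120) and without DB#2 replicate 1 (adjusted p = 0.118). Without D replicate 1 the counts of kinases, retinoblastoma family genes and E2F genes called in D against M became 1 each, and with slide as a block those of kinases and E2F genes became 1 and 2.

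Regulators of single members were counted in the same way. The p53 list holds p53 targets that act beside Cdkn1a, of which 16 were tested against M and 15 between the myeloid lines, and 1 was called in D and in DB#1 against M and 0 in DB#2, DB#3 and J365 against M0 (5, 3, 5, 3 and 1 at an unadjusted p under 0.05). The gene was Sesn1, a stress-response gene that restrains mTORC1, which fell by 0.69 in D (SE 0.16, adjusted p = 0.016) and by 0.57 in DB#1 (adjusted p = 0.0465). The D call was lost without M replicate 3 (adjusted p = 0.167), and the DB#1 call without any 1 of 6 arrays, all but M replicate 2. Sesn1 does not stand for the direction of the list in D. Btg2 was higher by 1.19 (adjusted p = 0.287), Trp53inp1 by 0.87 (0.114) and Phlda3 by 0.67 (0.271), all uncalled. Besides Sesn1, the tested genes that were lower were Mdm4 (-0.31), Tigar (-0.05) and Sesn2 (-0.03). These genes were named after their values were seen. Of 7 genes for p27 turnover and 6 or 7 for FoxO and AKT input 0 were called in any of the 5 comparisons. Unadjusted p fell under 0.05 for 0, 2, 1, 2 and 0 of the first and for 0, 0, 0, 1 and 0 of the second.

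Of 12 genes for TGF-beta, Smad and Myc input, which act on Cdkn2b and Cdkn1a, Myc rose and Tgfb1 fell in D and DB#1. Myc, a transcription factor that represses both genes, was higher than in M by 1.04 in D (adjusted p = 0.0106), 0.95 in DB#1 (adjusted p = 0.0163) and 0.93 in DB#3 (adjusted p = 0.0376). Tgfb1, the ligand, fell by 1.56 in D (adjusted p = 0.0237) and by 2.19 in DB#1 (adjusted p = 0.000868). Tgfb1 in DB#1 stayed called with any 1 array left out, but in D it stayed called only without D replicate 1. Myc lost its call in D without M replicate 2 or 3 (adjusted p = 0.0786 and 0.0594), in DB#1 without M replicate 2 or 3 or DB#1 replicate 1 or 3, and in DB#3 without any 1 of 6 arrays. No gene of this list was called in DB#2 against M (0 of 12, 2 unadjusted) or J365 against M0 (0 of 11, 3 unadjusted).

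Of 12 Polycomb genes, whose proteins silence the Cdkn2a locus in many cells, 1 was called in DB#2 against M and 0 in the other 4 comparisons (1, 1, 2, 1 and 0 unadjusted). It was Cbx7, a chromobox subunit, which fell by 1.67 (SE 0.30, adjusted p = 0.00122) in DB#2, the line with the highest Cdkn1c, and stayed called with any 1 array left out. Of 14 melanin genes 1, 1, 0 and 1 fell in D, DB#1, DB#2 and DB#3 against M, each time Trpm1, a melanocyte channel, by 2.29 in D, 3.35 in DB#1 and 3.34 in DB#3 (adjusted p = 0.0369, 0.0011 and 0.00274). Of the blood cell genes, 5 or 6 were tested against M, and Coro1a, an actin-binding protein of leukocytes, fell by 1.55 in D, 1.70 in DB#1 and 1.67 in DB#3 (adjusted p = 0.0464, 0.0211 and 0.0476). Lcp1, an actin-bundling protein, fell by 2.45 in DB#1 and 2.82 in DB#2 (adjusted p = 0.00195 and 0.000941). In D the Trpm1 and Coro1a calls were each lost without any 1 of 6 of the 7 arrays, Trpm1 without D replicate 3 among them (adjusted p = 0.0952). The Coro1a call was also lost in DB#1 without any 1 of 5 of the 7 arrays (adjusted p up to 0.100) and in DB#3 without any 1 of all 6 arrays (adjusted p up to 0.205). Between J365 and M0, Fcer1g, the common gamma chain of Fc receptors, rose by 3.09 (adjusted p = 8.77e-09) and Mitf, the melanocyte and myeloid transcription factor, by 1.19 (adjusted p = 0.0477), the latter lost without any 1 of 5 of the 7 arrays (adjusted p up to 0.424). Rab38, a melanosome trafficking gene, was read on 4 of 4 M0 arrays and 0 of 3 J365 arrays (adjusted p = 1.08e-15). Trpm1 and Coro1a were called lower in the 3 lines in which Cdkn2c was called lower. In DB#2, where neither was called, their means also lay below M (3.46 against 4.55 and -2.07 against -1.46). Lcp1 was called in DB#2, where Cdkn2c was not, and not in D (-1.24, adjusted p = 0.207). The part of any of these markers in the members' differences was not tested.

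For the 4 members whose line means spanned at least 1 on the log2 scale, the genes with the most similar line means over the 7 lines, among 8070 candidates, are given as a description. For Cdkn1c these were Rspo3 (r = 0.996), Pak3 (r = 0.987) and Zfp941 (r = 0.980), which stood highest in DB#2, Pak3 at 0.26 against -1.07 in M. For Cdkn1a they were Slc19a2 (r = 0.989), Pgam1 (r = 0.986) and Gtf2e2 (r = 0.984). For Cdkn2a they were Kdm4d, Hsd3b4 and Iqcf5 (r = 0.999 each), and for Cdkn2b Vgf, Dok3 and Myct1 (r = 0.999 each). The last 2 sets and their members share the contrast of 2 myeloid with 5 melanoma lines and the array D replicate 3. The Cdkn1a set shares that contrast of lines as well. The Cdkn1c set stood highest in DB#2 because it was chosen by likeness to Cdkn1c, and Rspo3 was low even there (-3.15). In all 4 cases 7 points do not separate many genes with the same contrast.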

How the data were processed

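RNA of 7 mouse lines was measured on 24 single-colour Agilent arrays scanned with Agilent Feature Extraction 10.7.3.1, and the authors deposited for each spot a processed intensity, corrected for background, with a mark for signal well above background. The series table repeats these values (1511424 of 1511424 equal). Control spots and 117 probes flagged as outliers were left out, spots of a probe were averaged, and log2 intensity was set relative to the 75th percentile of each array. The brightest probe stood for a gene. Symbols came from a RefSeq gene table matched by accession (32917 of 56488 probes, 22881 symbols), and promoter sequence from RefSeq (GRCm38.p6).

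Lines were compared with limma 3.58.1 in R 4.3.3, with 1 term per line over all 24 arrays (17 residual degrees of freedom) and Benjamini-Hochberg adjustment over all genes tested. A gene was tested where its probe was well above background on every array of at least 1 line compared, and an adjusted p under 0.05 made a call. The fit was tested on simulated data. The number of arrays limits the precision. The arrays lie on 3 slides, each with every line. For M and DB#1, arrays of the same number deviated together over 15819 genes (r = 0.65, 0.57 and 0.91). The labels name no pairing, and the main fit used none. Single numbers of other lines gave values as high, such as 0.85 for DB#2 and M at number 1, with -0.55 and -0.56 at numbers 2 and 3.

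Named genes were the 7 members, the tested neighbours of Cdkn2a, Cdkn2b and Cdkn1c that the text describes, at most 2 called genes in each direction per list, and the 3 most similar genes for members spanning at least 1 on the log2 scale. Members, lists and rules were chosen with earlier results of these data known. Alternatives were other scalings, normexp background correction (offset 50, on the median signal in place of the mean signal, which was not used here), no filter, the mean of probes, slide or replicate blocks, fewer arrays, and 3 settings chosen after seeing the data: D replicate 3 left out with slide as a block, D replicate 3 left out of the shared spread, and the spread estimated before the filter.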

Additional observations from a re-analysis of the deposited data

Results flagged for a closer look

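Cdkn2c, which encodes p18, was called as different between the melanoma and the myeloid pair of lines. D minus M less J365 minus M0 was -0.90 on the log2 scale (SE 0.23, limma's adjusted p = 0.0414). The call was kept in 9 of 25 alternative settings, and leaving out any 1 of 11 of the 14 arrays ended it. J365 minus M0 alone was 0.15 and was not called (adjusted p = 0.976). The level was 3.13 ± 0.17 in M (SD, n = 3) and 2.37 ± 0.25 in D (n = 4), against 2.60 ± 0.21 in M0 (n = 4) and 2.75 ± 0.10 in J365 (n = 3). Without D replicate 3 the difference of differences was -0.81 and was not called (adjusted p = 0.0641). Without that array and with slide as a block, a setting chosen after seeing the data, it was -0.85 (adjusted p = 0.0206).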

How the results depend on the processing

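Of 871 alternative values of member differences, 768 kept direction and side of the threshold, 44 lost a call, 20 gained one and 39 changed sign. The count in DB#2 against M was 1 in every alternative. In D against M the count of 1 became 2 with the percentile over detected probes, normexp, the mean of probes or slide as a block, 3 with quantile normalization (Cdkn2d with the percentile, quantile and slide settings, Cdkn1c with quantile normalization and normexp, Cdkn1a with the mean of probes), and 0 without scaling or with only the arrays compared (0 to 1 with 1 array left out). In DB#1 against M the count of 2 became 1 without scaling, without the filter, with the replicate block, with only the arrays compared or with the spread over all genes (1 to 2 with 1 array left out). In DB#3 against M the count of 1 became 2, with Cdkn1c, with normexp or with D replicate 3 left out of the spread, and 0 without the filter, with the replicate block, with the spread over all genes or with any 1 array left out, and with only the arrays compared Cdkn1c was called in place of Cdkn2c. In DB#2 against D the count of 2 became 1 without the filter or with only the arrays compared (1 to 2 with 1 array left out). In J365 against M0 the count of 0 became 1, Cdkn2a, with quantile normalization, normexp, the mean of probes, only the arrays compared or D replicate 3 left out of the spread. For D minus M less J365 minus M0 the count of 1 became 0 without scaling, without the filter, with the replicate block, with only the arrays compared or with the spread over all genes, and 2 without D replicate 3 and with slide as a block (0 to 1 with 1 array left out). The cause of these changes was not tested.

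None of the values that changed sign passed the test in either setting. DB#2 minus M without scaling was 0.063 for Cdkn1b, 0.15 for Cdkn2c and 0.22 for Cdkn2d, and 0.0052 for Cdkn2c with normexp. DB#1 minus D for Cdkn1b was -0.060 with the percentile over detected probes, -0.061 with quantile normalization, -0.079 without scaling and -0.015 without D replicate 3 and with slide as a block. DB#2 minus D for Cdkn1a was -0.046, -0.040, -0.80, -0.072 and -0.073 with the percentile over detected probes, quantile normalization, the mean of probes, the replicate block, and without D replicate 3 and with slide as a block. DB#3 minus D for Cdkn1b was 0.015 with slide as a block and 0.017 with the replicate block, and for Cdkn2c -0.0033 with quantile normalization, -0.13 without scaling and -0.027 with the replicate block. The difference of differences for Cdkn2b was -0.59 with quantile normalization, -0.45 with normexp and -0.68 without D replicate 3 and with slide as a block.

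With 1 array left out, sign changes came in these ranges: in DB#2 minus M, -0.16 to 0.0088 for Cdkn2c and -0.048 to 0.015 for Cdkn2d; in DB#1 minus D, -0.66 to 0.090 for Cdkn1a and -0.13 to 0.12 for Cdkn1b; in DB#2 minus D, -0.27 to 0.48 for Cdkn1a; in DB#3 minus D, -0.59 to 0.16 for Cdkn1a, -0.18 to 0.069 for Cdkn1b and -0.0084 to 0.17 for Cdkn2c; in J365 minus M0, -0.078 to 0.23 for Cdkn2d; and in the difference of differences, -0.40 to 0.062 for Cdkn1b and -0.61 to 0.72 for Cdkn2b.

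Without scaling the median of all genes in DB#2 against M was 0.25 (0.02 with scaling), with 1122 genes higher and 133 lower (451 and 269 with scaling), and in D against M it was 0.17 (-0.01), with 407 higher and 140 lower (278 and 320). Replicate numbers other than those of M and DB#1 did not mark shared deviations throughout, with r of 0.10, -0.43 and -0.49 for D and M. The replicate block ended the Cdkn2c calls in DB#1 (adjusted p = 0.0721) and DB#3 (adjusted p = 0.0966) against M and in the difference of differences (adjusted p = 0.120), and added one for Cdkn2d in DB#2 against D (adjusted p = 0.0440). Signals near background limit Cdkn1c, Cdkn2a and Cdkn2b, whose values there give only bounds.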
